A study of Homo sapiens with 12 samples.

Results

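The cytosolic heat shock chaperones described here are 10 genes, HSF1, HSPA8, HSPA1A, HSPA1B, HSP90AA1, HSPH1, HSPB1, CRYAB, DNAJB1 and BAG3. They were picked by symbol from the 19824 entries of the deposited gene table, where each has 1 entry, and all 10 passed the filter on low values. RNA was sequenced from U87 and U373 cells, both human glioblastoma lines, after 72 h with 1 U/ml of BCT-100, a pegylated arginase I that splits arginine into ornithine and urea, or with phosphate-buffered saline (PBS). The 4 groups, U87 with BCT-100, U87 with PBS, U373 with BCT-100 and U373 with PBS, held 3 libraries each. Both lines are labelled wild-type and were grown in high-glucose DMEM with 10% FBS. The labels do not say whether the libraries came from separate cultures, so the p-values cover no more than the spread from library to library, and that spread may be technical.

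Molecular chaperones hold unfolded proteins and help them fold. HSF1 is the transcription factor that, when unfolded protein draws the chaperones away from it, forms trimers, binds heat shock elements and turns on chaperone genes. HSP70 proteins, started by J proteins such as DNAJB1 and reset by exchange factors such as HSPH1 and BAG3, pass clients on to HSP90 or to degradation, while small heat shock proteins such as HSPB1 and CRYAB keep them from clumping. CRYAB is also a common protein of astrocytes and astrocytic tumours.

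Levels are deposited scaled read counts, that is, estimated read counts which the authors divided by 1 factor per library. Column totals ran from 22101094 to 23433112, and recovered depths from 18886118 to 25923925 reads. Mitochondrially encoded mRNA, which also moves with RNA quality, took 3.59% to 3.7% of the U87 BCT-100 libraries and 5.84% to 6.06% of the U87 PBS libraries. In U373 it took 3.32% to 3.46% with BCT-100 and 4.26% to 4.36% with PBS, and its part in the results below was not tested. Of 10 astrocyte and neural stem markers, 7 had a mean of at least 10 in U373 in either treatment and 4 in U87. GFAP, the astrocyte filament protein, averaged 1.37 in U87 with BCT-100 and 3.58 with PBS, so this defining marker was nearly absent from U87. In U87 the 10 markers summed to 70389 to 72237 with BCT-100 and to 178001 to 181737 with PBS, nearly all of it VIM. The 8 leukocyte markers summed to 96.3 to 121 with BCT-100 and 261 to 307 with PBS in U87, and to 60.4 to 88.7 with BCT-100 and 25.7 to 39.6 with PBS in U373, with CD3E and AIF1 at 0 in every group. The 6 epithelial markers summed to 18.6 to 39.7 with BCT-100 and 35.1 to 48.2 with PBS in U87, and to 280 to 315 with BCT-100 and 316 to 386 with PBS in U373. The 5 endothelial and erythroid markers reached at most 26.2 with BCT-100 and 54.8 with PBS in U87, and 24.2 with BCT-100 and 86.6 with PBS in U373, with HBB at 0. The 7 neuronal markers summed to 3587 to 3606 with BCT-100 and 5375 to 5466 with PBS in U87, and to 4648 to 4826 with BCT-100 and 3686 to 3943 with PBS in U373. The part of these markers in the results was not tested.

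Heat shock elements are arrays of the unit GAA in alternating orientation. The promoter stretches below show where such letters stand in HSPA8, HSP90AA1, DNAJB1, HSPA1A and HSPA1B. RefSeq promoters on GRCh38.p14 (250 bases before to 50 after a start site) were matched by symbol for 8 of the 10 genes, all but HSF1 and CRYAB. Either of the 2-unit arrays GAANNTTC and TTCNNGAA, each the same on both strands, was found in 6 of these 8 genes, HSPA8, HSPA1A, HSPA1B, HSP90AA1, HSPB1 and DNAJB1, and in 16.2% of all 27305 genes in the table (13.5% of its 35116 promoters), each gene counted over all its starts. An array of 3 units, in which the 2 kinds of 2-unit array share their middle unit, was found on either strand in HSPA8 and HSP90AA1 and in 0.608% of genes. The CCAAT box, letters CCAAT on either strand, was found in 5 of the 8 genes and 39.7% of all genes, and TATAAA in HSPA1A and HSPA1B and 14% of all genes. TGATGNAA, the core of elements bound by ATF4 with a C/EBP partner, was in none of the 8 genes and in 4.46% of all genes. Such matches are descriptions of letters in a window. The stretches end at the base before the RefSeq start and are written 5′ to 3′ on the gene's strand. Capitals mark the 2-unit and 3-unit arrays, and single units outside them are in lower case. HSPA8 is chr11:123062137-123062386 (minus strand), HSP90AA1 chr14:102087045-102087194 (minus), DNAJB1 chr19:14518398-14518547 (minus), HSPA1A chr6:31815393-31815542 (plus) and HSPA1B chr6:31827588-31827737 (plus).
HSPA8: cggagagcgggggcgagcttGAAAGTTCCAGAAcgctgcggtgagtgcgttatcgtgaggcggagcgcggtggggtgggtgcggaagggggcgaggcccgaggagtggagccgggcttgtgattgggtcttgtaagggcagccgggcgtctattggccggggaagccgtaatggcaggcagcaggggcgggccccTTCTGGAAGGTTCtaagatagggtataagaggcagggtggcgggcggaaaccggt
HSP90AA1: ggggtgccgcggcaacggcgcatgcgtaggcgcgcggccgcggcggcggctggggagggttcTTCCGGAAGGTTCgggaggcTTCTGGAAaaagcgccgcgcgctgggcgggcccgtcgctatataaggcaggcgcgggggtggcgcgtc
DNAJB1: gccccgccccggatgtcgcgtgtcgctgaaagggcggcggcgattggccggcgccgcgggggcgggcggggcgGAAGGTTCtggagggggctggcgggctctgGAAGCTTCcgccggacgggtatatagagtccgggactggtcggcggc
HSPA1A: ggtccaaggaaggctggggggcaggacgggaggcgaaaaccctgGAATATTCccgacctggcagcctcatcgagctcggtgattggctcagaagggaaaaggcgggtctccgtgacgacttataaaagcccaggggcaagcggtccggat
HSPA1B: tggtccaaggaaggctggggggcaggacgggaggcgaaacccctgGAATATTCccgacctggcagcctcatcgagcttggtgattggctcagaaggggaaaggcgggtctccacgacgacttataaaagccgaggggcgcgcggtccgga
HSPA8 holds 2 such 3-unit arrays, which begin 230 and 55 bases before the start. In HSP90AA1 the 3-unit array begins 88 bases before the start, with a separate 2-unit array 68 bases before it, and in DNAJB1 the 2-unit arrays begin 77 and 47 bases before it. HSPA1A and HSPA1B share the same 2-unit array at 106 and 105 bases before their starts. Over the 250 bases before the start these 2 genes are 93.6% identical. HSPB1, whose stretch is not printed, has a 2-unit array that begins 182 bases before its start, and HSPH1 and BAG3 have none. HSP90AA1 has 2 RefSeq starts and DNAJB1 has 3, and the stretch printed is that of the start nearest the GENCODE principal transcript.

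In U87 the question was what 72 h of BCT-100 did to these genes. HSPA8 and its J protein partner DNAJB1 had the largest called rises, HSPB1, HSPH1 and HSP90AA1 rose less, and HSF1 itself and BAG3 fell. Of the 10 genes, 5 rose, 2 fell and 3 were not called, whereas 33.6% of all 13628 tested genes were called higher and 35.7% lower in this comparison. The share of members called, 7 of 10, was close to the 69.3% of all genes. Groups did not overlap in 8 of 10 members, against 73% of all genes. The median log2 change was 0.22 over the members and -0.01 over all tested genes. In U373, 4 rose, 3 fell and 3 were not called, beside 35.6% of all genes called higher, 35.8% lower and 71.4% in either direction. There 8 of 10 members did not overlap between the groups, against 74.5% of all genes, and the median was 0.04 over the members and 0.00 over all genes. Adjusted p-values are from limma with Benjamini-Hochberg adjustment over all 13628 genes, on log2 of the value plus 1, and a gene was called at an adjusted p under 0.05. In a test against a fold of 1.5 no member was called in U87. In U373 none was called higher, and HSPB1 and CRYAB were called lower. That test called 2768 of the 13628 genes in U87 and 3179 in U373.

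**Figure D1:**
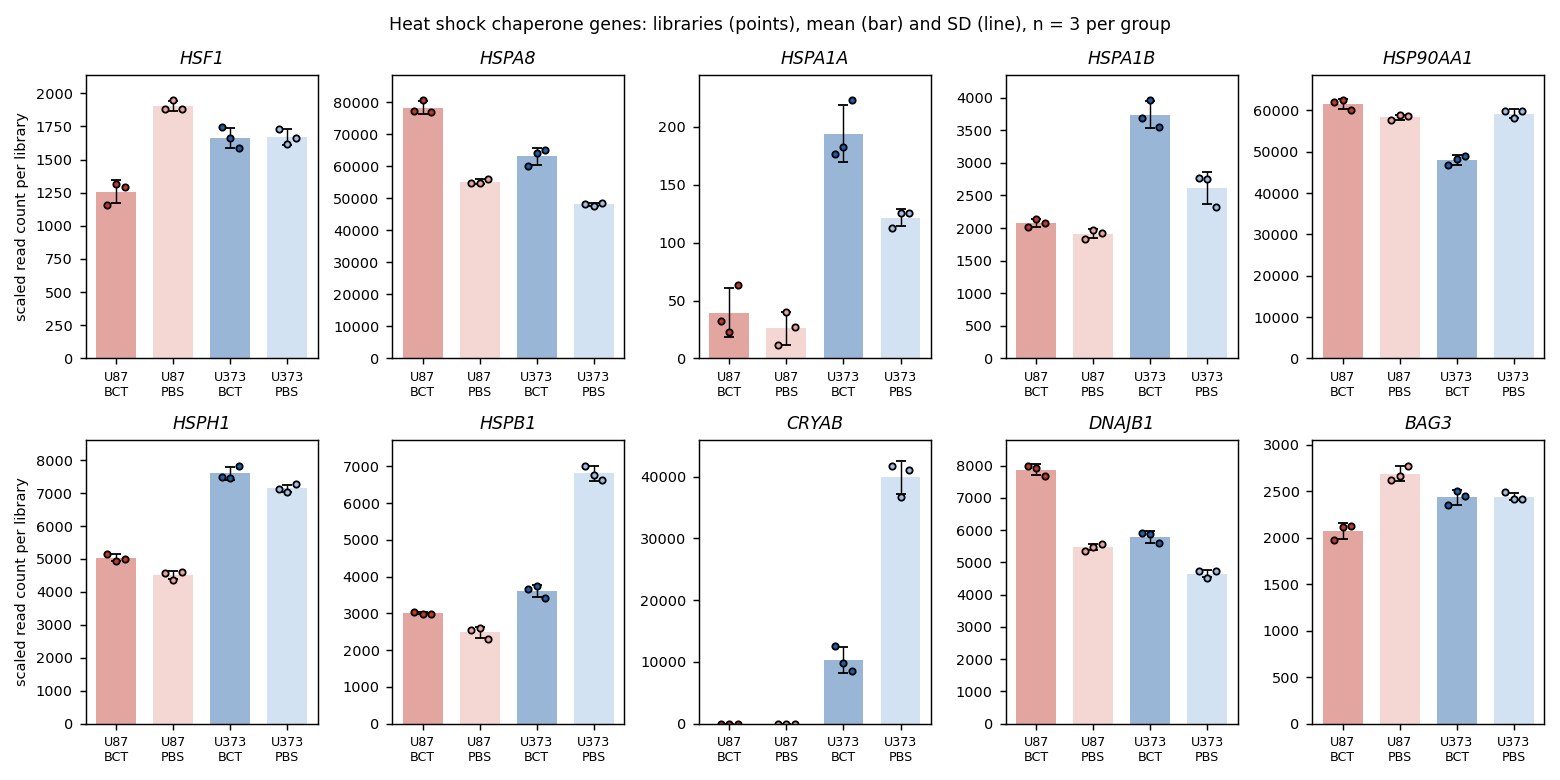
Scaled read count (vertical axes, linear from 0) of each gene in every library (points), with the group mean (bar) and SD (line) of 3 libraries; groups from left to right are U87 with BCT-100, U87 with PBS, U373 with BCT-100 and U373 with PBS. HSPA8 and DNAJB1 stand higher with BCT-100 in both lines, HSF1 and BAG3 lower in U87, and HSPB1 and CRYAB lower in U373.

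HSF1 (chromosome 8, 144291591 to 144314722) was lower after BCT-100 in U87. It had 1160, 1318 and 1294 scaled read counts in the U87 BCT-100 libraries, against 1880, 1947 and 1885 in the U87 PBS libraries. The groups did not overlap, and HSF1 fell by 0.60 on the log2 scale (SE 0.05, adjusted p = 1.05e-09). In U373 it had 1744, 1661 and 1591 with BCT-100, against 1734, 1618 and 1663 with PBS. These groups overlapped, with a ratio of means of 0.996 (adjusted p = 0.936). The responses of HSF1 differed by -0.59 (U87 minus U373, SE 0.07, adjusted p = 4.37e-07).

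HSPA8, the constitutive cytosolic HSP70 (chromosome 11, 123057489 to 123063230), rose in both lines. It had 77244, 80554 and 76793 scaled read counts in U87 with BCT-100, against 54801, 54611 and 56017 with PBS, a log2 change of 0.50 (SE 0.03, adjusted p = 8.71e-13). In U373 it had 60019, 64041 and 65034 with BCT-100, against 48203, 47597 and 48559 with PBS, a change of 0.39 (SE 0.03, adjusted p = 4.74e-11). Every BCT-100 library lay above every PBS library of its line. The rise was larger in U87 by 0.12 (SE 0.04, adjusted p = 0.0133), a difference that did not pass with quantile normalisation (0.23, adjusted p = 0.0773).

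HSPA1A and HSPA1B, the stress-inducible HSP70 genes, code for the same kind of chaperone and lie next to each other on chromosome 6 (31815464 to 31817946 and 31827735 to 31830255). Their coding sequences of 1923 bases differ at 4 positions in GENCODE, so reads from them can be placed on either gene, and the split between them is uncertain. The untranslated parts differ more, with 49.5% identity after the coding sequence. HSPA1A took 0.627% to 5.9% of the summed count of both in a library. The sum of both is therefore the more reliable measure. It was 2052, 2159 and 2136 in U87 with BCT-100, against 1846, 2015 and 1951 with PBS, which did not overlap but lay close together. The log2 change of the sum was 0.13 (SE 0.05, adjusted p = 0.0449), and this call was lost in 4 of 6 fits that left out a library. The adjusted p was 0.13 without U87 BCT-100 replicate 2, 0.109 without U87 BCT-100 replicate 3, 0.181 without U87 PBS replicate 1 and 0.0769 without U87 PBS replicate 3. In U373 the sum was 3872, 4143 and 3775 with BCT-100, against 2884, 2872 and 2455 with PBS, with no overlap. There it rose by 0.52 (SE 0.05, adjusted p = 6.26e-08). The responses of the sum differed by -0.40 (U87 minus U373, SE 0.08, adjusted p = 0.000232). HSPA1B alone had 2019, 2137 and 2073 in U87 with BCT-100, against 1835, 1975 and 1925 with PBS (0.12, SE 0.06, adjusted p = 0.074). That change was called with the median of ratios (0.13, adjusted p = 0.0455) and with the U87 libraries alone (0.12, adjusted p = 0.0106). In U373 HSPA1B had 3695, 3959 and 3553 with BCT-100, against 2772, 2746 and 2328 with PBS, a rise of 0.52 (SE 0.06, adjusted p = 2.62e-07). HSPA1A was at 32.7, 22.5 and 63.3 in U87 with BCT-100 and at 11.6, 40.1 and 26.8 with PBS, groups that overlap (0.61, SE 0.40, adjusted p = 0.2). Leaving out 1 library at a time, its change ran from 0.13 without U87 PBS replicate 1 (adjusted p = 0.731) to 0.99 without U87 PBS replicate 2 (adjusted p = 0.029), the only such fit that called it. In U373 HSPA1A was at 177, 183 and 223 with BCT-100 and at 113, 126 and 126 with PBS (0.67, SE 0.40, adjusted p = 0.156). The fit gives HSPA1A 1 spread for both lines. With the U373 libraries alone the same change had an adjusted p of 4.41e-05.

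HSP90AA1, the inducible cytosolic HSP90 (chromosome 14, 102080738 to 102139699), moved in opposite directions in the lines. It had 62121, 62413 and 60047 scaled read counts in U87 with BCT-100, against 57562, 58806 and 58560 with PBS. The groups did not overlap and the log2 change was 0.08 (SE 0.02, adjusted p = 0.00518), but with every library scaled to the same total it was 0.03 (adjusted p = 0.16) and with quantile normalisation -0.02 (adjusted p = 0.433). In U373 it had 46764, 48343 and 49026 with BCT-100, against 59766, 58082 and 59826 with PBS. Here HSP90AA1 fell by 0.30 (SE 0.02, adjusted p = 2.26e-10), and the responses differed by 0.38 (SE 0.03, adjusted p = 4.25e-09). Its constitutive paralogue HSP90AB1 changed by -0.09 in U87 and by -0.07 in U373 (SE 0.02 each, adjusted p = 0.00141 and 0.00654).

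Among the partners of HSP70, DNAJB1, a J protein that hands clients to HSP70 (chromosome 19, 14514770 to 14529770), rose in both lines. It had 8003, 7936 and 7685 scaled read counts in U87 with BCT-100, against 5368, 5491 and 5570 with PBS, a log2 change of 0.52 (SE 0.03, adjusted p = 6.17e-12). In U373 it had 5918, 5891 and 5589 with BCT-100, against 4725, 4519 and 4729 with PBS, a change of 0.32 (SE 0.03, adjusted p = 1.48e-08). No BCT-100 library overlapped a PBS library of its line, and the rise was larger in U87 by 0.21 (SE 0.04, adjusted p = 0.000468). HSPH1, the HSP110 exchange factor (chromosome 13, 31134974 to 31162388), rose less. It had 5150, 4946 and 4999 in U87 with BCT-100, against 4567, 4371 and 4594 with PBS (0.16, SE 0.03, adjusted p = 0.000109). In U373 HSPH1 had 7495, 7472 and 7834 with BCT-100, against 7122, 7042 and 7263 with PBS (0.09, SE 0.03, adjusted p = 0.0128). That U373 call was lost without U373 BCT-100 replicate 3 (0.07, adjusted p = 0.0721), with libraries scaled to the same total (0.07, adjusted p = 0.0514) and with quantile normalisation (0.02, adjusted p = 0.65). The HSPH1 responses differed by 0.07 between the lines (SE 0.04, adjusted p = 0.183).

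BAG3, an exchange factor that sends HSP70 clients to selective autophagy together with HSPB8 (chromosome 10, 119651370 to 119677819), was lower after BCT-100 in U87. It had 1980, 2117 and 2129 scaled read counts with BCT-100, against 2625, 2669 and 2777 with PBS, with no overlap, and fell by 0.37 on the log2 scale (SE 0.04, adjusted p = 3.16e-08). In U373 BAG3 had 2350, 2504 and 2454 with BCT-100, against 2488, 2420 and 2423 with PBS, overlapping groups with a ratio of means of 0.997 (adjusted p = 0.926). The responses differed by -0.37 (U87 minus U373, SE 0.05, adjusted p = 8.53e-06). HSF1 and BAG3 were thus both lower in U87 and both without a call in U373, while HSPA8 and DNAJB1 were called higher in both lines.

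The small heat shock proteins gave the largest changes among the members, in U373. HSPB1 (chromosome 7, 76302544 to 76304295), also known as HSP27, had 3668, 3742 and 3416 scaled read counts in U373 with BCT-100, against 7017, 6775 and 6621 with PBS. The groups were far apart and HSPB1 fell by 0.92 (SE 0.04, adjusted p = 6.91e-14). In U87 HSPB1 had 3043, 2994 and 2981 with BCT-100, against 2540, 2589 and 2314 with PBS, and rose by 0.28 (SE 0.04, adjusted p = 5.65e-06). The responses differed by 1.19 (SE 0.06, adjusted p = 1.28e-12), which a test against a fold of 1.5 also called.

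CRYAB, alpha-B crystallin (chromosome 11, 111908565 to 111923722), had 12597, 9777 and 8467 scaled read counts in U373 with BCT-100, against 41781, 36742 and 41095 with PBS. The groups did not overlap and CRYAB fell by 1.97 (SE 0.44, adjusted p = 0.00332), to a ratio of means of 0.258. In this fit its SE takes in the scatter of the few U87 reads, and with the U373 libraries alone the adjusted p was 0.000425. In U87 it was close to absent, at 20.7, 6.31 and 12 with BCT-100 and 5.87, 16.4 and 7.44 with PBS, overlapping groups (0.34, SE 0.44, adjusted p = 0.518). The difference of the responses, 2.32 (SE 0.63, adjusted p = 0.0121), compares U373 with a line that had few reads, and with voom weights it was not called (adjusted p = 0.407). CRYAB reached the filter value of 10 in every U373 library, and in U87 only in the libraries at 20.7, 12 and 16.4. In U373 the summed level of the 10 astrocyte and neural stem markers was 60963 to 62574 with BCT-100 and 234156 to 241662 with PBS. Most of this sum was VIM, at 41779 with BCT-100 and 166871 with PBS. GFAP averaged 10041 with BCT-100 and 52216 with PBS, and S100B 55.1 with BCT-100 and 398 with PBS. NES, FABP7 and SOX2 were also lower with BCT-100. SLC1A3 went the other way, at 2714 with BCT-100 and 2232 with PBS, as did OLIG2, at 9.8 with BCT-100 and 0 with PBS. AQP4 and ALDH1L1 were absent or nearly so. The part of these markers in the fall of CRYAB was not tested. In bulk RNA fewer cells of a type and less RNA per cell cannot be told apart. HSPB2, a small heat shock protein gene, lies within the annotated span of CRYAB on the other strand, and no source used here says that reads were counted by strand, so their reads cannot be told apart where the genes overlap. HSPB2 averaged 2.65 ± 2.31 in U373 with BCT-100 and 32.1 ± 8.1 with PBS (SD, n = 3 each).

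**Figure D2:**
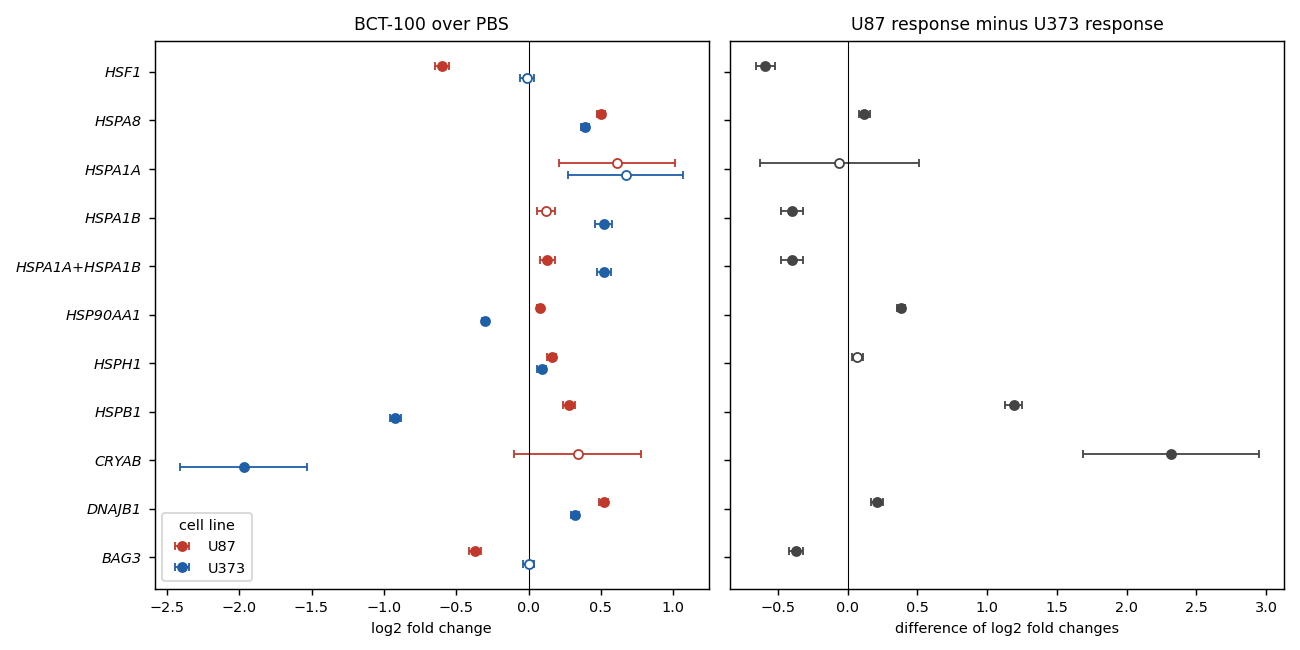
Log2 fold change of BCT-100 over PBS in U87 (red) and U373 (blue) on the left, and the U87 response minus the U373 response on the right, with lines of 1 SE on each side; filled points passed an adjusted p under 0.05. HSPA8 and DNAJB1 lie to the right of 0 in both lines, and HSPB1 and CRYAB lie far to the left in U373.

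Set against each other, the responses of the lines differed in 8 of the 10 genes, 5 with a higher value in U87, HSPA8, HSP90AA1, HSPB1, CRYAB and DNAJB1, and 3 with a lower one, HSF1, HSPA1B and BAG3. Over all tested genes 26.1% were called higher, 30.7% lower and 56.8% in either direction. The opposite calls of HSPB1 and HSP90AA1 were the only ones among the members, and that of HSP90AA1 rests on a small U87 change that depends on the scaling.

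Compared between the PBS-treated lines, the members fell into those that were lower in U87 and those that differed little. Of the 10 genes 4 were higher in U87 than in U373, 5 lower and 1 not called, beside 43% of all tested genes higher, 40.1% lower and 83.1% in either direction. CRYAB differed most, followed by HSPA1A, which averaged 26.2 ± 14.3 in U87 PBS and 121 ± 7.71 in U373 PBS (-2.33, SE 0.40, adjusted p = 0.000123). HSPA1B differed by -0.45 (SE 0.06, adjusted p = 1.13e-06), and the split of reads between HSPA1A and HSPA1B is uncertain. CRYAB averaged 9.9 ± 5.67 in U87 PBS and 39873 ± 2733 in U373 PBS (SD, n = 3 each), a log2 difference of -11.96 (SE 0.44, adjusted p = 6.42e-09). Only 0.0881% of tested genes differed by more. HSPB1 averaged 2481 ± 147 in U87 PBS and 6805 ± 199 in U373 PBS, a difference of -1.46 (SE 0.04, adjusted p = 1.56e-17). HSPH1 averaged 4511 ± 122 in U87 and 7143 ± 112 in U373 (-0.66, SE 0.03, adjusted p = 3.42e-14), and the sum of HSPA1A and HSPA1B 1937 ± 85 in U87 and 2737 ± 244 in U373 (-0.50, SE 0.05, adjusted p = 9.39e-08). The other called members differed by 0.14 (BAG3), 0.19 (HSF1), 0.20 (HSPA8) and 0.23 (DNAJB1), all higher in U87, although HSPA8 was not called there with quantile normalisation (0.12, adjusted p = 0.135). HSP90AA1 averaged 58309 ± 659 in U87 and 59225 ± 990 in U373, with overlapping groups and a difference of -0.02 (SE 0.02, adjusted p = 0.367). That difference was called with libraries scaled to the same total (-0.04, adjusted p = 0.0332) and with the median of ratios (-0.05, adjusted p = 0.0288).

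Levels of different genes were compared as scaled read counts per kb of transcript, using the longest principal transcript in GENCODE release 29 and taking HSPA1A and HSPA1B together. HSPA8 stood first and HSP90AA1 next in U87 with either treatment and in U373 with BCT-100. HSPA8 averaged 31749 per kb in U87 with BCT-100 and 22389 with PBS, and in U373 25591 with BCT-100 and 19537 with PBS. Among 18573 genes with a length HSPA8 ranked 23 with BCT-100 and 34 with PBS in U87, and 34 with BCT-100 and 42 with PBS in U373. In U373 with PBS, CRYAB stood above both at 35632 per kb, rank 20 of all genes, while with BCT-100 it was at 9187, rank 114, below HSP90AA1 at 14218. In U87 CRYAB was last of the members at 11.6 per kb with BCT-100 and 8.84 with PBS. HSPB1 and DNAJB1 changed places in U87, with DNAJB1 at 3478 and HSPB1 at 3307 per kb with BCT-100, and DNAJB1 at 2419 and HSPB1 at 2729 with PBS. HSF1 stood just above CRYAB in U87 with BCT-100, at 587 per kb, against 889 per kb and a place above HSPH1 with PBS. Neighbours whose library ranges overlapped were the HSPA1A and HSPA1B sum with BAG3 in U87 with BCT-100, HSF1 with HSPH1 in U87 with PBS, and that sum with HSPH1 in U373 with BCT-100. All other neighbours in the order were separate in every library.

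**Figure D3:**
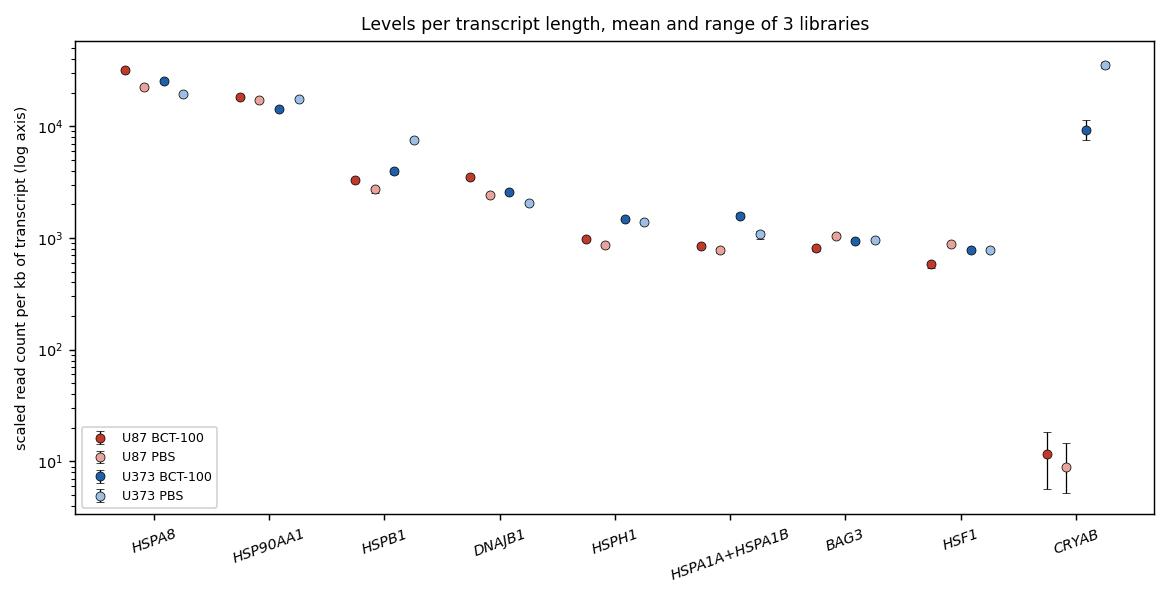
Scaled read count per kb of transcript (log axis) for the chaperone genes, with the mean (point) and the range of 3 libraries (line) in each group. HSPA8 and HSP90AA1 lie at 14218 or above in every group, and CRYAB spans from 8.84 in U87 PBS to 35632 in U373 PBS.

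All 10 genes together took 0.689% ± 0.014 of the scaled read count in U87 with BCT-100 and 0.586% ± 0.0035 with PBS, and 0.647% ± 0.0022 with BCT-100 and 0.775% ± 0.014 with PBS in U373 (SD, n = 3 each). The total was thus larger with BCT-100 in U87 and smaller in U373. HSPA8 and HSP90AA1 made up 86.7% of it in U87 with BCT-100 and 85.6% with PBS, and 75.9% with BCT-100 and 62.2% with PBS in U373. The smaller U373 total does not describe every member. CRYAB averaged 10280 with BCT-100 and 39873 with PBS there, the largest difference in scaled read count among the 10 genes. HSPA8 and HSP90AA1 together took 0.49% ± 0.01 of the scaled read count in U373 with BCT-100 and 0.482% ± 0.0037 with PBS.

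Ratios within a library do not depend on the scaling between libraries. The log2 ratio of inducible HSPA1A plus HSPA1B to constitutive HSPA8 was -5.21 ± 0.04 in U87 with BCT-100 and -4.83 ± 0.07 with PBS, so the inducible share was smaller with BCT-100. In U373 it ran from -4.11 to -3.95 with BCT-100 and from -4.31 to -4.05 with PBS, groups that overlap. The log2 ratio of HSP90AA1 to HSP90AB1 was 0.22 ± 0.04 in U87 with BCT-100 and 0.05 ± 0.02 with PBS. In U373 the order was the other way, at -0.03 with BCT-100 and 0.20 ± 0.03 with PBS. The log2 ratio of CRYAB to HSPB1 was 1.49 ± 0.25 in U373 with BCT-100 and 2.55 ± 0.10 with PBS, so CRYAB was lower with BCT-100 also relative to HSPB1. The log2 ratio of BAG3 to BAG1, an exchange factor linked to proteasomal delivery, was 2.41 ± 0.03 in U87 with BCT-100 and 2.56 ± 0.12 with PBS. These U87 groups overlap, at 2.39 to 2.44 with BCT-100 and 2.42 to 2.64 with PBS. In U373 the ratio was 1.76 ± 0.05 with BCT-100 and 2.02 ± 0.12 with PBS, without overlap. These ratios are given as a description, without a test, with 1 added to each value.

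**Figure D4:**
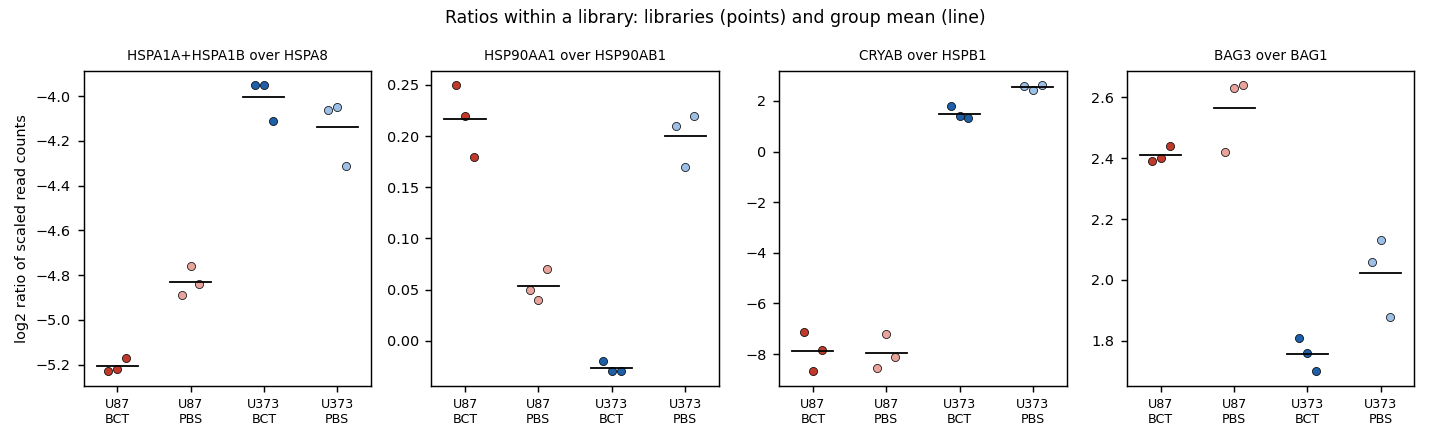
Log2 ratio of scaled read counts within each library (points) with the group mean (line). The panels show HSPA1A plus HSPA1B over HSPA8, HSP90AA1 over HSP90AB1, CRYAB over HSPB1 and BAG3 over BAG1, and their vertical axes differ. The HSP90AA1 over HSP90AB1 ratio is higher with BCT-100 in U87 (0.18 to 0.25 against 0.04 to 0.07) and lower with BCT-100 in U373 (-0.03 to -0.02 against 0.17 to 0.22).

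The wider chaperone network was described with 10 lists of 93 genes, 83 of them not among the members. Of these 83, 81 were tested. In U87 31 rose, 33 fell and 17 were not called, with a median log2 change of 0.00, and in U373 35 rose, 27 fell and 19 were not called, with a median of 0.07. Called genes made up 79% in U87 and 76.5% in U373, against 69.3% and 71.4% of all genes. Over all tested genes 33.6% were called higher and 35.7% lower in U87, and 35.6% higher and 35.8% lower in U373. The counts of each list below are to be read beside these shares, and no list was tested as a set. In the HSP90 list, with its cochaperones and the member HSP90AA1, 9 of 14 rose, 4 fell and 1 was not called in U87. In U373 8 rose, 5 fell and 1 was not called, and the medians were 0.20 in U87 and 0.35 in U373. FKBP4, an immunophilin cochaperone of steroid receptors, rose by 0.76 in U87 and 1.56 in U373 (SE 0.04 each), and CHORDC1, a cochaperone, by 0.98 in U373 (SE 0.04). TTC4 rose by 0.63 in U87 (SE 0.05), while UNC45A, a myosin chaperone, fell by 0.85 in U87 and 0.84 in U373 (SE 0.05 each). FKBP5, another immunophilin, fell by 0.46 in U87 (SE 0.09). AHSA2 fell by 0.62 in U373 (SE 0.11).

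In the HSP70 and HSP110 list, members included, 4 of 10 rose, 2 fell and 4 were not called in U87, and 4 rose, 3 fell and 3 were not called in U373 (medians 0.26 and 0.24). HSPA4, an HSP110 relative, rose by 0.42 in U87 and 0.89 in U373 (SE 0.03 each). Its paralogue HSPA4L rose by 0.37 in U87 and fell by 0.39 in U373 (SE 0.06 each, adjusted p of the difference 8.91e-08). HSPA2, a testis-enriched HSP70, fell by 1.12 in U87 and by 1.39 in U373 (SE 0.20 each). Its means in U373 were only 8.52 with BCT-100 and 23.6 with PBS, and the difference of its responses was not called (limma adjusted p = 0.43). HSPA14, a ribosome-associated HSP70, fell by 0.54 in U87 (SE 0.07). HSPA6, an HSP70 that is nearly silent without stress, averaged 11.2 ± 5.59 in U87 with BCT-100 and 19.1 ± 10.3 with PBS (SD, n = 3 each, limma adjusted p = 0.176), and in U373 18 ± 6.89 with BCT-100 and 12.2 ± 2.71 with PBS (limma adjusted p = 0.36).

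Of the 8 small heat shock genes that could be tested, members included, 1 rose, 3 fell and 4 were not called in U87 (median -0.06). In U373 none rose, 6 fell and 2 were not called (median -0.74). Those 2, HSPB3 and HSPB7, were at 0 in every U373 library, so they could not be called and enter the median at 0.00. In U87 HSPB2 averaged 0.345 with BCT-100 and 1.69 with PBS, without a call. HSPB3 there averaged 10.6 with BCT-100 and 8.57 with PBS, also without a call. HSPB8, the partner of BAG3, fell by 0.26 in U87 and 0.64 in U373 (SE 0.06 each), and HSPB6 by 0.98 in U87 and by 0.83 in U373 (SE 0.26 each), at means in U373 of 4.91 with BCT-100 and 9.54 with PBS. HSPB2, at -3.48 in U373 (SE 0.68), is counted among the 6, but it passed the filter on low values only through the U373 PBS libraries where it was high, so its call follows from the filter and carries no weight. Among 9 tested J proteins, DNAJB1 included, 4 rose, 1 fell and 4 were not called in U87. In U373 4 rose, 3 fell and 2 were not called. DNAJB6, which suppresses aggregation, rose by 0.46 in U87 and by 0.57 in U373 (SE 0.03 each), and DNAJB2 by 0.28 in U87 (SE 0.05). DNAJB5 fell by 1.83 in U373 (SE 0.11). DNAJA1 rose by 0.20 in U87 and fell by 0.21 in U373 (SE 0.03 each, limma adjusted p of the difference 4.16e-08), and DNAJA2 fell by 0.09 in U87 and rose by 0.20 in U373 (SE 0.04 each).

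The BAG list, with other HSP70 partners, had 5 of 10 higher and 5 lower in U87, and 5 higher, 3 lower and 2 not called in U373. STUB1 (CHIP), the ubiquitin ligase that marks chaperone clients, fell by 0.96 in U87 and 0.74 in U373 (SE 0.07 each). HSPBP1, an HSP70 exchange factor, fell by 0.85 in U87 and by 0.55 in U373 (SE 0.08 each). HSPBAP1 rose by 1.15 in U87 and by 0.86 in U373 (SE 0.11 each). ST13 (HIP), which steadies HSP70 on its clients, rose by 0.53 in U87 (SE 0.03), and BAG4 rose by 0.43 in U373 (SE 0.07). In the HSF list HSF2, a relative that can join HSF1 in trimers, rose by 0.27 in U87 and 0.83 in U373 (SE 0.07 each). HSF4 rose by 1.00 in U87 (SE 0.24) and HSF2BP by 0.67 (SE 0.29, limma adjusted p = 0.0463). HSF2BP averaged only 28.6 in U87 with BCT-100 and 18 with PBS. HSBP1, which binds HSF1 trimers, fell by 0.17 in U87 (SE 0.04). That list, HSF1 included, had 3 of 5 higher and 2 lower in U87, and 1 higher and 4 not called in U373.

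The TRiC chaperonin, which folds actin and tubulin, had 3 of 8 subunits higher, 4 lower and 1 not called in U87, and 4 higher and 4 not called in U373. CCT7 rose by 0.39 in U87 and by 0.77 in U373, and CCT4 by 0.37 in U87 and by 0.44 in U373 (SE 0.03 each), while CCT3 and CCT8 fell by 0.21 and 0.16 in U87 (SE 0.03 each). Prefoldin, which delivers clients to TRiC, had 1 of 6 higher, 4 lower and 1 not called in U87, and 1 higher, 3 lower and 2 not called in U373. PFDN2 rose by 1.14 in U87 and by 2.11 in U373, and PFDN5 fell by 0.33 in U87 and by 0.70 in U373 (SE 0.05 each). VBP1 fell by 0.70 in U87 (SE 0.04) and PFDN6 by 0.75 in U373 (SE 0.08). Of 8 mitochondrial chaperones 4 rose, 3 fell and 1 was not called in U87, and 7 rose and 1 fell in U373. HSPA9 (mortalin), the mitochondrial HSP70, rose by 1.00 in U87 and 1.60 in U373 (SE 0.03 each), more than any of the 10 cytosolic members rose in the same line. Its exchange factor GRPEL2 rose by 1.08 in U87 and by 1.17 in U373 (SE 0.06 each), HSPE1 fell by 0.19 in U87 and rose by 0.25 in U373 (SE 0.04 each, limma adjusted p of the difference 1.09e-06), and the disaggregase CLPB fell by 0.95 in U87 and by 0.46 in U373 (SE 0.07 each).

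The list of HSF1 regulators held 15 genes, HSF1 itself included. In U87 2 rose, 9 fell, HSF1 among them, and 4 were not called. In U373 6 rose, 6 fell and 3 were not called. SIRT1, a deacetylase that acts on HSF1, rose by 1.07 in U87 and by 0.95 in U373 (SE 0.05 each), and the acetyltransferase EP300 by 0.48 in U87 (SE 0.03). PLK1, a mitotic kinase that also phosphorylates HSF1, fell by 4.49 in U87 and fell by 2.09 in U373 (SE 0.06 each), and the kinase AKT1 by 0.55 in U87 and by 0.81 in U373 (SE 0.03 each). NEDD4, a ubiquitin ligase, rose by 0.63 in U373 (SE 0.04). TTC4, CHORDC1, HSPA14, ST13, BAG4, VBP1, PFDN6 and EP300, given for 1 line, were called in the same direction in the other, where they were not among the largest changes of their list. Each rise or fall given for a list gene passed the limma test at an adjusted p under 0.05.

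**Figure D5:**
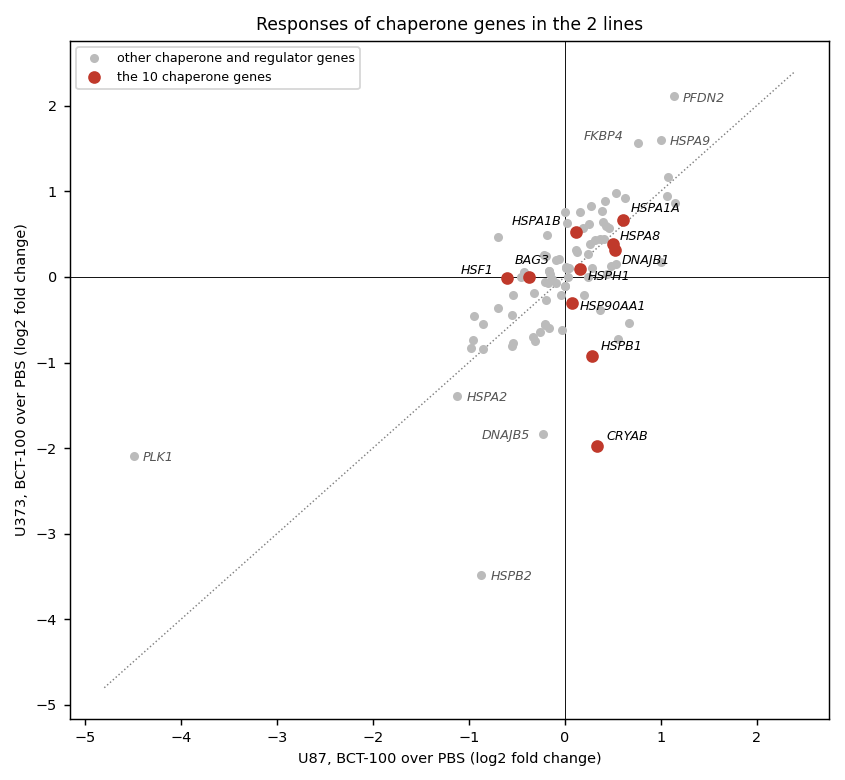
Log2 fold change of BCT-100 over PBS in U87 (horizontal axis) and U373 (vertical axis) for the 10 chaperone genes (red) and the other tested list genes (grey), with the line of equal change dotted. HSPB1 and CRYAB lie well below that line, and HSF1 and BAG3 lie to the left of 0 in U87 with U373 changes near 0.

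The genes whose pattern was most like each member were found by Pearson correlation of log2 values over the 12 libraries. These libraries fall into 4 groups, so r does not rest on 12 unrelated points and is given as a description. It also takes in the difference between the lines, so a high r need not mean a like response to BCT-100. Among the list genes the closest to HSF1 was BAG3 (r = 0.96), and the closest to BAG3 was HSF1. The closest to HSPA8 was CCT4 (r = 0.98), to DNAJB1 HSPBAP1 (r = 0.98), to HSP90AA1 DNAJB5 (r = 0.92) and to HSPH1 BAG2 (r = 0.99). To HSPB1 it was DNAJC7 (r = 0.93), to CRYAB DNAJB4 (r = 0.99), to HSPA1A CCT6A (r = 0.94) and to HSPA1B SKI (r = 0.95). DNAJB4 itself was not called in U87 (0.00) or in U373 (-0.11), where CRYAB fell by 1.97. Over all tested genes the closest were IMMP1L to HSF1 (r = 0.98), UBE2E1 to HSPA8, ANK3 to HSP90AA1 and RPS2 to HSPA1B (r = 0.99 each), and RALA to DNAJB1, NRCAM to HSPH1, PLCB1 to HSPB1 and NEDD9 to CRYAB (r above 0.99 each). For HSPA1A it was ENTHD2 (r = 0.97) and for BAG3 PIP4K2B (r = 0.98). Between 83 (BAG3) and 1906 (CRYAB) tested genes had an r above 0.9 with a member.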

How the data were processed

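Per the submitters' processing notes, reads were aligned with STAR to hg38 and quantified with RSEM. Versions, annotation and library strand are not given in the sources used here. The authors deposited a signal table, whose low values come in steps, as estimated counts divided by a library factor would. Undoing the factor made 85.7% to 87.2% of values above 0 whole (within 0.01). As the rest did not, no count model was used. The table held 19844 entries, of which 20 repeats were dropped. Groups came from the treatment labels, as the protocol label names PBS for every sample. limma 3.58.1 (R 4.3.3) was fitted with 4 group means to all 12 libraries (8 residual degrees of freedom) on log2(value + 1), with a trended, robust prior, for 13628 genes that reached 10 in 3 or more libraries. It was checked on simulated data. Members, lists and tests were chosen with earlier results of these data known. Chi-square per gene between replicates was 2.37 to 4.33, so none repeat one another. Positions and lengths are from GENCODE release 29. Named were all members, the 2 called list genes with the largest rise and fall per list and line, and the most correlated genes. Others named from the lists, HSP90AB1, HSPA6 and second-line values among them, and the neighbour HSPB2 for its overlap, were chosen after their values were seen. Alternatives were other scalings, filters, pseudocounts, voom weights, fits to the compared libraries, a replicate block, a test against a fold of 1.5 and leaving out each library.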

Additional observations from a re-analysis of the deposited data

Results flagged for a closer look

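In 8 of the 10 chaperone genes the response to BCT-100 differed between U87 and U373 by a test of the difference itself (limma, adjusted p under 0.05), as it did in 56.8% of all tested genes. Each value is the U87 log2 change minus the U373 log2 change. The difference was 2.32 for CRYAB, which had few reads in U87, 1.19 for HSPB1, 0.38 for HSP90AA1, 0.21 for DNAJB1 and 0.12 for HSPA8. It was -0.59 for HSF1, -0.40 for HSPA1B, whose reads cannot be told from those of HSPA1A over most of the coding sequence, and -0.37 for BAG3. For HSPB1 and HSP90AA1 the genes were called in opposite directions in the lines. Groups of 3 libraries are too small for a test of single deviating samples.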

How the results depend on the processing

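Of 690 values of single members under the alternatives, 650 kept their side of the threshold, and their direction where they were called. These 650 include changes of sign without a call in either fit, as for CRYAB in U87 (0.34, and -0.04 at the lowest without 1 library). Of the rest 31 lost and 8 gained a call, and 1 called value reversed: HSP90AA1 in U87 was -0.02 with quantile normalisation. The test against a fold of 1.5 accounts for most losses. It left 2768 genes called in the U87 comparison (9450 before), 3179 in that of U373 (9724), 1747 in the difference (7740) and 5846 between PBS lines (11325). Of the members it called 0 higher and 0 lower in U87, 0 higher and 2 lower (HSPB1 and CRYAB) in U373, 1 higher (HSPB1) and 0 lower for the difference, and 0 higher and 4 lower (HSPA1A, HSPH1, HSPB1 and CRYAB) between the PBS lines. The sum of HSPA1A and HSPA1B then stayed at 0.13, 0.52, -0.40 and -0.50 in these 4 comparisons without a call. In U87 the sum also lost its call with libraries scaled to the same total (0.08), quantile normalisation (0.12), no filter (0.13) and voom (0.13). Leaving out 1 library at a time, the sum ran from 0.09 to 0.16 in U87, the genes called from 8944 to 9010 in U87, from 9268 to 9355 in U373, from 7337 to 7566 in the difference, and from 10968 to 11049 between the lines. Members called higher ran from 5 to 6 in U87 and from 3 to 4 in U373. Same-numbered libraries of different groups did not deviate together (18 correlations from -0.07 to 0.03). These values cannot show whether same-numbered libraries were handled together. With a replicate block HSPA1B in U87 was at 0.12 and called (adjusted p = 0.033). Few reads limit CRYAB and HSPA1A in U87.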
